A study of Mus musculus with 7 samples.

Results

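The 38 genes described here encode the machinery that moves proteins into the endoplasmic reticulum (ER), together with the COPI and COPII vesicle coats, and were chosen by name. Of these, 37 had a probe set with a single gene symbol, out of 22180 genes measured in all. Srp54a had only probe sets that list several symbols and is not analysed here. By role they are 10 genes of the translocon and the translocon-associated protein complex (TRAP), 5 of signal peptidase, 6 measured of 7 of the signal recognition particle (SRP) and its receptor, 6 of the COPI coat and 10 of the COPII coat.

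Secretory and membrane proteins enter the ER while they are being made and leave it in coated vesicles. SRP binds the signal sequence of a nascent chain and docks at its receptor. The chain then passes through the Sec61 channel with the help of TRAP, and signal peptidase removes the signal sequence. COPII coats form the vesicles that carry cargo from the ER towards the Golgi, and COPI coats those that return ER proteins from the Golgi. Islet cells send their prohormones through this route, and acinar cells of the exocrine pancreas send digestive enzymes through it in large amounts.

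The study measured RNA of pancreatic islets, isolated with collagenase, on Affymetrix whole-transcript arrays. Mice of the group labelled Gata6 KO (4 arrays, called KO-labelled here) were Gata6 flox/flox with a Pdx1-Cre transgene, and control mice (3 arrays) were Gata6 flox/flox without it. Every array held the pooled islets of 3 mice aged 2 months, so p-values measure how pools vary. Pdx1-Cre acts in the pancreatic epithelium, which forms acinar and ductal as well as endocrine cells, and the control mice had no Cre.

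Gata6, the targeted transcription factor, had no lower signal on KO-labelled arrays. It averaged 5.28 ± 0.18 (SD, n = 4) on the log2 scale there and 4.74 ± 0.12 (SD, n = 3) on the control arrays, a difference of 0.54 (SE 0.20) that did not pass (limma, Benjamini-Hochberg adjusted p = 0.0622). It passed, towards higher signal, without the KO-labelled array 4 (adjusted p = 0.0333) and with array weights (adjusted p = 0.0312), among other alternatives. Which exons are floxed and where the probes lie was not stated in the labels, so the signal may check nothing. Directions below follow the labels.

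Marker genes of several cell types also differed between the groups. Of 12 beta-cell genes 11 fell and 1 rose on KO-labelled arrays, and of 10 pan-endocrine genes 9 fell. Their mean log2 signals ran from 5.50 to 7.01 for beta-cell genes on KO-labelled arrays against 8.29 to 8.90 on control arrays, and from 3.85 to 5.44 for pan-endocrine genes against 7.01 to 7.45. Of 27 acinar genes 16 were higher and 0 lower, with mean signals from 10.60 to 10.82 against 9.90 to 10.01 on the control arrays. The 2 acinar genes with the strongest signal, the proteases Ctrb1 and Cela1, differed by 0.05 (SE 0.14) and 0.02 (SE 0.14), close to the top of the range. Bhlha15, a transcription factor of the acinar secretory apparatus, differed by 0.27 (SE 0.23, limma adjusted p = 0.404). The other transcription factors of the acinar list, Ptf1a, Rbpjl and Nr5a2, rose by 1.12, 0.95 and 1.17. Their limma adjusted p were 0.00316, 0.00641 and 0.00102, and these 3 calls were not tried under the alternatives. Lymphoid and plasma-cell genes were higher in 4 of 8 cases, with means from 2.57 to 3.41 on KO-labelled arrays against 1.55 to 1.87 on control arrays. Of the other lists, 6 of 8 mesenchymal genes and 1 of 6 macrophage genes were higher, 3 of 4 alpha-cell genes, 3 of 4 delta- and PP-cell genes and 3 of 7 endothelial genes were lower, and of 5 ductal genes 1 was higher and 1 lower. Over all genes 17.4% were higher and 7.36% lower, so the macrophage count is near the share of all genes. Xist, the RNA that silences an X chromosome in female cells, measured 5.16, 5.32, 2.15 and 5.60 on KO-labelled arrays 1 to 4 and 5.02, 5.38 and 1.34 on control arrays 1 to 3, so that array 3 of each group stood apart. RMA signals have no true zero, so no marker could be called absent. In these bulk samples fewer cells of a type and less RNA per cell cannot be told apart.

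Over all genes, 24.7% passed limma's test at an adjusted p under 0.05, with 17.4% higher and 7.36% lower on the KO-labelled arrays. Of the 37 measured genes, 16 were higher and 2 lower. All 4 KO-labelled arrays lay above all 3 control arrays for 18 of the 37, where 24.4% of all genes did so, and below them for 5, where 9.96% did so. The median log2 difference of the 37 genes was 0.39, beside 0.17 over all genes. Both splits depended on the scaling. After each array was centred on its median 8 of the 37 were higher and 5 lower (1870 and 2769 of all genes), and after a repeated quantile normalization 15 were higher and 10 lower (2440 and 2477 of all genes), against 3853 and 1633 of all genes in the values as deposited. The count of all genes fell to 2246 higher and 1019 lower without control array 1 and to 2395 higher without control array 2. The count of lower members was 0 without control array 1 or 2, 1 without control array 3, 3 without the KO-labelled array 4 and 4 without the KO-labelled array 1. The calls of 7 higher genes held under every alternative tried: Sec61g, Ssr3, Ssr4, Spcs1, Sec11c, Srp14 and Sar1a. Between the groups, the acinar, lymphoid and mesenchymal marker lists also rose, with median log2 differences of 0.67, 1.23 and 1.65. The medians of the ductal and macrophage lists were 0.40 and 0.12. Those of the endocrine and endothelial lists were negative, from -2.74 (delta and PP cells) to -0.47 (endothelial). The part of these cell types in the differences below was not tested.

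Counts and medians of translocation genes and coat genes lay apart. Of 21 translocation genes (translocon, TRAP, signal peptidase, SRP and receptor) 13 were higher and 0 lower, with a median log2 difference of 0.80. Srpr, the alpha subunit of the receptor, is not among them and is given with the partners. It differed by -0.51 and did not pass as deposited (limma adjusted p = 0.0677). Of 16 coat genes 3 were higher (18.8%, near the 17.4% of all genes) and 2 lower, with a median of -0.28. The balance among coat genes turned with the scaling: 1 was higher and 4 lower after centring, and 2 were higher and 9 lower after the repeated quantile normalization. Of the translocation genes, 7 were higher and 1 lower after centring, and 13 were higher and 1 lower after the repeated quantile normalization. The gap was present within each KO-labelled array: after subtraction of every gene's control mean, the translocation median exceeded the coat median by 0.90, 0.86, 1.40 and 0.96 on the KO-labelled arrays 1 to 4. The same values of control arrays 1 to 3 (-0.01, -0.05 and 0.05) are held near 0 by that subtraction and are no independent reference. Such a gap within an array does not depend on how arrays are centred, and it is given without a test because the genes were chosen with earlier results known.

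**Figure D1:**
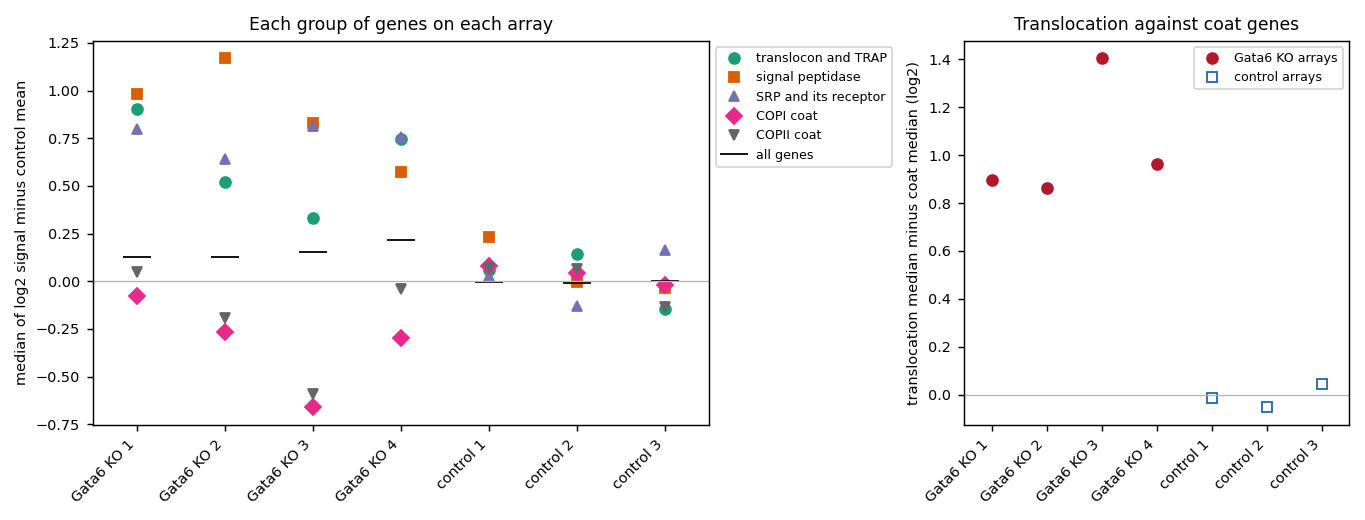
Left, the median over the genes of each role of log2 signal minus the gene's mean on the control arrays, with the same median over all genes as a bar. Right, the translocation median minus the coat median on each array, from 0.86 to 1.40 on the 4 KO-labelled arrays. The 3 control arrays (-0.05 to 0.05) lie near 0 because control means were subtracted.

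The Sec61 channel is a complex of an alpha, a beta and a gamma subunit. Sec61g, the gamma subunit, gave the largest difference of the 37 genes. Its log2 signal was 7.94, 8.02, 8.13 and 6.96 on the KO-labelled arrays 1 to 4, against 4.74, 4.85 and 4.39 on control arrays 1 to 3. The groups lay far apart, and array 4 stood below the other KO-labelled arrays. The difference was 3.10 (SE 0.27; 95% interval 2.52 to 3.68), an 8.58-fold higher signal (limma adjusted p = 5.25e-06). One further probe set lists Sec61g beside another symbol and was not used.

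The bases before the annotated start of Sec61g are shown because it is the gene that differed most. They lie on the minus strand at chr11:16508485-16508734 (GRCm38.p6, RefSeq), and capitals mark CCAAT boxes on either strand.
Sec61g: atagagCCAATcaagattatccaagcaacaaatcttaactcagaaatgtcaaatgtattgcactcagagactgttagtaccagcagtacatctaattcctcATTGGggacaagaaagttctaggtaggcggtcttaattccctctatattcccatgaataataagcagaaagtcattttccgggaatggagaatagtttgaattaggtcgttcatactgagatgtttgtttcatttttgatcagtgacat
The window held none of the unfolded protein response motifs described with the coat genes. CCAAT is common: 37.4% of all 32851 promoter windows hold it, and so did 10 of the 31 members with a window.

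The other channel subunits did not pass the test. Sec61a1, the widely used alpha subunit, measured 8.89 ± 0.36 (SD, n = 4) on the KO-labelled arrays and 8.50 ± 0.22 (SD, n = 3) on the control arrays, and all values after ± are SDs over the same numbers of arrays. The difference was 0.39, with an interval from -0.08 to 0.85. Its paralog Sec61a2 had a low signal, 1.66 ± 0.21 on KO-labelled arrays and 2.01 ± 0.19 on control arrays, and differed by -0.35 with an interval from -0.78 to 0.08. The beta subunit gene Sec61b also gave low signals on both of its probe sets. On the brighter one it measured 2.03 ± 0.48 on the KO-labelled arrays and 1.55 ± 0.30 on the control arrays, and it did not pass (limma adjusted p = 0.196). On the other it measured 1.90 ± 0.21 on KO-labelled arrays and 1.01 ± 0.15 on control arrays, and the mean of both probe sets passed with a difference of 0.69 (limma adjusted p = 0.0292). The medians of all probe sets were 1.89 to 2.11 on the KO-labelled arrays and 1.72 to 1.78 on the control arrays, so Sec61b and Sec61a2 were read near the middle of all probe sets.

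Sec62 and Sec63 serve the channel in the import of some precursors, and Sec63 recruits the chaperone BiP to it. Sec63 measured 6.23, 5.82, 5.63 and 5.98 on the KO-labelled arrays, against 5.27, 5.57 and 4.82 on the control arrays. The groups did not overlap, but the gap between the closest arrays was narrow. The rise of 0.69 (SE 0.23, limma adjusted p = 0.0403) was lost after centring (adjusted p = 0.201). It was also lost without control array 1 (adjusted p = 0.0975) or 3 (adjusted p = 0.186), and without the KO-labelled array 1 (adjusted p = 0.089), 2 (adjusted p = 0.0656) or 4 (adjusted p = 0.0627). Sec62 measured 6.62 ± 0.26 on KO-labelled arrays and 6.35 ± 0.022 on control arrays and did not pass, with an interval from -0.16 to 0.69.

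TRAP, which assists the entry of many secretory precursors, is built from the products of Ssr1 to Ssr4. The delta subunit gene Ssr4 had a log2 signal of 9.09, 8.78, 8.88 and 8.90 on the KO-labelled arrays, against 7.35, 8.01 and 7.30 on the control arrays. Control array 2 was the highest control, and all KO-labelled arrays were above it. The difference was 1.36 (SE 0.21), or 2.57-fold (limma adjusted p = 4.01e-04). Ssr3, the gamma subunit, measured 7.20 ± 0.14 on KO-labelled arrays and 6.32 ± 0.10 on control arrays and rose by 0.89 (SE 0.18, limma adjusted p = 0.00343). Ssr1, the alpha subunit, measured 7.29 ± 0.10 on KO-labelled arrays and 6.49 ± 0.22 on control arrays and rose by 0.80 (SE 0.19, limma adjusted p = 0.0071), which was lost after centring (adjusted p = 0.0627). A second probe set of Ssr1, of low signal, differed by 0.63 (1.77 ± 0.28 on KO-labelled arrays and 1.14 ± 0.078 on control arrays). Ssr2, the beta subunit, measured 8.96 ± 0.19 on KO-labelled arrays and 8.59 ± 0.13 on control arrays. Its groups did not overlap, yet the difference of 0.37 did not pass (interval from -0.02 to 0.76).

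**Figure D2:**
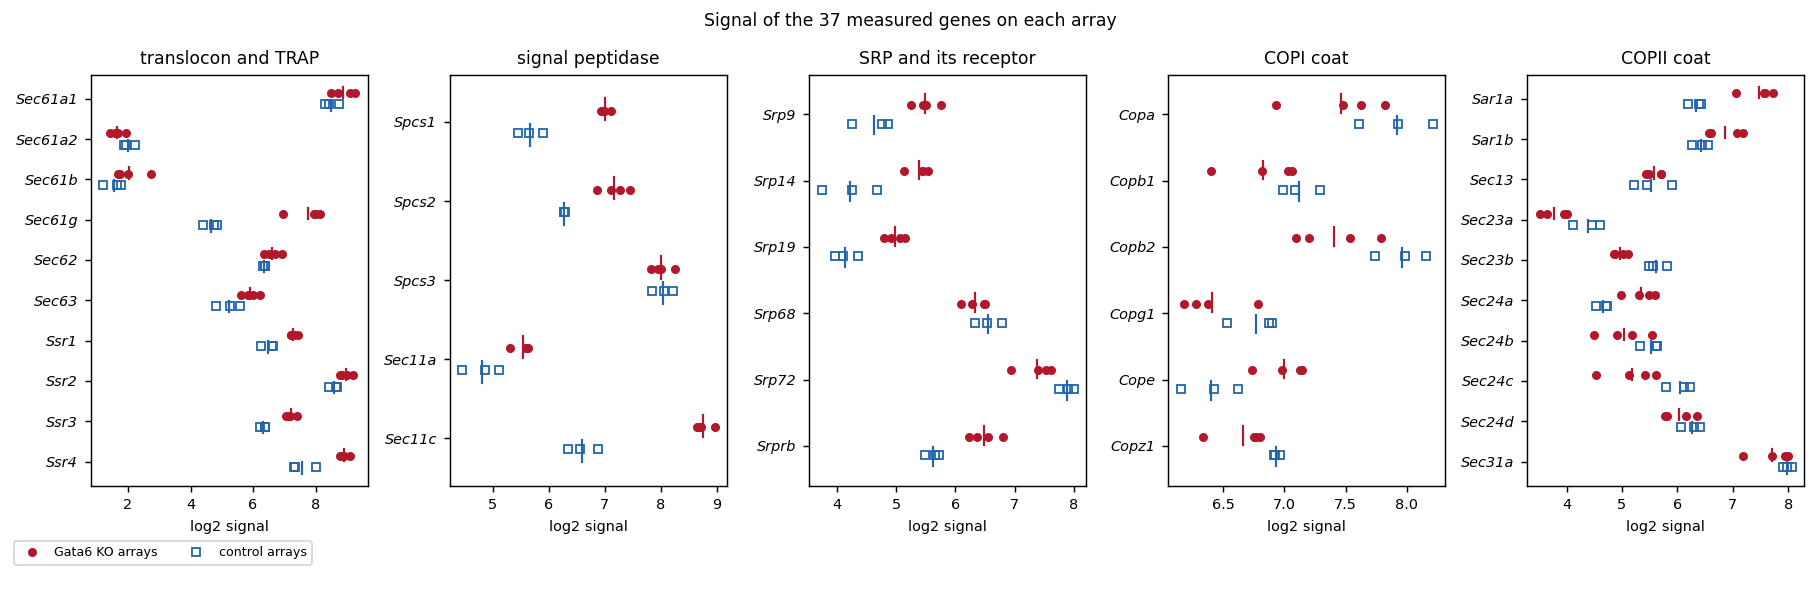
Log2 signal (x axes) of the 37 measured genes, by role. Filled circles are the 4 KO-labelled arrays, open squares the 3 control arrays and vertical ticks the group means. Sec61g, Ssr4, Spcs1 and Sec11c show wide gaps between the groups, whereas Sec61a1, Spcs3, Sec13 and most COPI genes overlap or nearly touch.

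Signal peptidase combines a catalytic subunit, SEC11A or SEC11C, with accessory subunits. Sec11c had a log2 signal of 8.95, 8.65, 8.69 and 8.71 on the KO-labelled arrays, against 6.88, 6.35 and 6.56 on the control arrays. No array of one group came near the other group. The difference of 2.15 (SE 0.19), a 4.44-fold higher signal, was the second largest of the 37 genes (limma adjusted p = 6.50e-06). The alternative catalytic subunit gene Sec11a measured 5.53 ± 0.15 on KO-labelled arrays and 4.82 ± 0.33 on control arrays, a rise of 0.72 (SE 0.21, limma adjusted p = 0.0248). That call was lost after centring (adjusted p = 0.153), without control array 2 (adjusted p = 0.0694) or 3 (adjusted p = 0.126) and without the KO-labelled array 2 (adjusted p = 0.0627).

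Among the accessory subunits, Spcs1 measured 7.12, 6.94, 6.98 and 6.99 on the KO-labelled arrays and 5.90, 5.65 and 5.46 on the control arrays. The KO-labelled arrays lay within a narrow band above all controls. Spcs1 rose by 1.33 (SE 0.19; limma adjusted p = 2.37e-04). Spcs2 measured 7.17 ± 0.25 on KO-labelled arrays and 6.28 ± 0.014 on control arrays and rose by 0.89 (SE 0.20, limma adjusted p = 0.00495). A second, dimmer probe set of Spcs2 measured 4.26 ± 0.45 on KO-labelled arrays and 4.58 ± 0.19 on control arrays, and with the mean of both the call was lost (difference 0.29, adjusted p = 0.317). Spcs3, which the complex needs for activity, ranged over 7.82 to 8.25 on KO-labelled arrays and 7.85 to 8.21 on control arrays, with an interval of the difference from -0.44 to 0.37.

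SRP is an RNA with several proteins. SRP9 and SRP14 form a dimer that slows translation, SRP19 and the dimer of SRP68 and SRP72 help to assemble the particle, and SRPRB anchors the receptor in the ER membrane. Srp14 measured 5.44, 5.53, 5.46 and 5.13 on the KO-labelled arrays, against 4.67, 4.26 and 3.74 on the control arrays. The control arrays spread over almost a whole log2 unit and all lay below the other group. Srp14 rose by 1.17 (SE 0.24, limma adjusted p = 0.00289). Srp9 rose by 0.86 (5.49 ± 0.21 on KO-labelled arrays against 4.62 ± 0.32 on control arrays). Srp19 rose by 0.84 (4.98 ± 0.16 on KO-labelled arrays against 4.14 ± 0.20 on control arrays). Srprb rose by 0.86 (6.48 ± 0.25 on KO-labelled arrays against 5.62 ± 0.12 on control arrays). These 3 calls were lost after centring (adjusted p = 0.0572, adjusted p = 0.0505 and adjusted p = 0.0594), and that of Srp9 also without control array 2 (adjusted p = 0.0744).

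Srp68 and Srp72, whose products pair within the particle, differed the other way. Srp72 measured 7.61, 7.39, 6.94 and 7.52 on the KO-labelled arrays, against 7.91, 7.75 and 7.99 on the control arrays. Every KO-labelled array was below every control array. The difference of -0.52 (SE 0.20) did not pass as deposited (limma adjusted p = 0.0788). It passed after centring (adjusted p = 0.0257) and after a repeated quantile normalization (adjusted p = 0.00204). Srp68 measured 6.34 ± 0.19 on KO-labelled arrays and 6.55 ± 0.23 on control arrays, with an interval of the difference from -0.64 to 0.22.

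**Figure D3:**
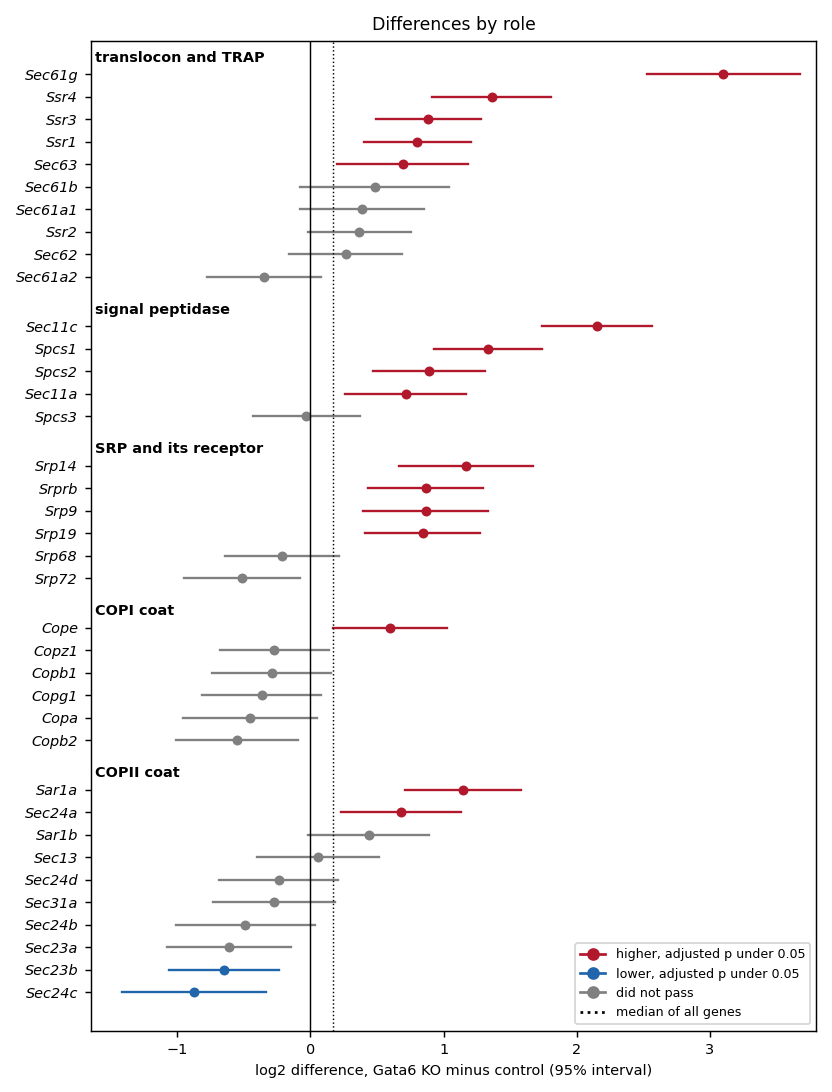
Log2 difference of each gene, Gata6 KO minus control (x axis), with its 95% interval, by role. Colours mark calls at an adjusted p under 0.05, the solid line is 0 and the dotted line the median of all genes, 0.17. Most translocation genes lie right of the dotted line and most coat genes left of it.

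The COPI coat is one large complex, and 6 of its subunit genes are members here. Copz2, Copg2 and Arcn1, which encode further subunits, are counted with the COPI partners. Copz2 rose by 0.68 (SE 0.22, limma adjusted p = 0.0383), and its call was not tried under the alternatives. Copg2 and Arcn1 differed by 0.05 (SE 0.29) and -0.08 (SE 0.20) and did not pass. Of the 6 members only Cope, the epsilon subunit, passed as deposited, towards higher signal. It measured 7.14, 6.98, 6.74 and 7.12 on the KO-labelled arrays and 6.15, 6.62 and 6.42 on the control arrays. The closest arrays of the groups differed little. Its rise of 0.60 (SE 0.20, limma adjusted p = 0.0411) was lost after centring (adjusted p = 0.239) and without any one array except the KO-labelled array 3. Those adjusted p were 0.18, 0.0566 and 0.0913 without control arrays 1 to 3, and 0.0793, 0.0811 and 0.0671 without the KO-labelled arrays 1, 2 and 4.

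The other 5 COPI members had negative differences and none passed as deposited. Copb2, the beta-prime subunit, measured 7.79, 7.54, 7.10 and 7.20 on the KO-labelled arrays and 7.99, 8.16 and 7.74 on the control arrays. KO-labelled array 1 overlapped the controls. The difference was -0.55 (SE 0.21, limma adjusted p = 0.0724), and it passed without that array (adjusted p = 0.0341), as it did once arrays were centred (adjusted p = 0.03). Copa, the alpha subunit, differed by -0.45 (interval -0.95 to 0.05), the gamma subunit gene Copg1 by -0.37 (interval -0.81 to 0.08), the beta subunit gene Copb1 by -0.29 (interval -0.74 to 0.16) and the zeta subunit gene Copz1 by -0.27 (interval -0.68 to 0.14). A second, dimmer probe set of Copz1 differed the other way, by 0.10 (2.32 ± 0.19 on KO-labelled arrays and 2.22 ± 0.27 on control arrays). After a repeated quantile normalization all 5 members passed towards lower signal on their brighter probe sets, with Copb2 the lowest at -0.89. On the KO-labelled array 3 all 6 COPI genes were at their lowest within that group. That array is also the one of low Xist in its group. Without it the COPI median difference was -0.22, against -0.33 with it, and with a block for Xist it was -0.36.

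In COPII, the GTPase SAR1 starts the coat, SEC23 and SEC24 form its inner layer with SEC24 binding cargo, and SEC13 and SEC31 form the outer cage. Sar1a measured 7.72, 7.56, 7.57 and 7.06 on the KO-labelled arrays, against 6.42, 6.38 and 6.19 on the control arrays. Array 4 was the lowest of its group and still above all controls. Sar1a rose by 1.15 (SE 0.20), or 2.21-fold (limma adjusted p = 0.00124). Its paralog Sar1b measured 6.86 ± 0.32 on KO-labelled arrays and 6.42 ± 0.15 on control arrays and did not pass (difference 0.44, interval -0.02 to 0.89).

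The inner layer genes differed in sign. Sec24c measured 5.61, 5.13, 4.54 and 5.42 on the KO-labelled arrays and 6.22, 6.11 and 5.80 on the control arrays. Array 3 was far below the rest. Sec24c fell, with a log2 difference of -0.87 (SE 0.25, limma adjusted p = 0.0218), a call lost without control array 1 (adjusted p = 0.096) or 2 (adjusted p = 0.0812). Sec23b measured 5.10, 5.02, 4.88 and 4.86 on the KO-labelled arrays against 5.55, 5.50 and 5.80 on the control arrays. It fell by 0.65 (SE 0.19, limma adjusted p = 0.0248), and without control arrays 1 to 3 in turn the adjusted p was 0.0661, 0.0563 and 0.106. Its paralog Sec23a measured 3.78 ± 0.24 on KO-labelled arrays and 4.39 ± 0.25 on control arrays, a difference of -0.61 (SE 0.22) that just missed the threshold (limma adjusted p = 0.0544). It passed without the KO-labelled array 1 (adjusted p = 0.0449), as it did once arrays were centred (adjusted p = 0.0215).

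Sec24a ran against its relatives. It measured 5.49, 5.31, 4.98 and 5.59 on the KO-labelled arrays, against 4.74, 4.72 and 4.53 on the control arrays. The control arrays were close together and all lower. The rise of 0.68 (SE 0.21, limma adjusted p = 0.0295) was lost after centring (adjusted p = 0.166). Without control arrays 1 to 3 it gave 0.0731, 0.0779 and 0.105 as adjusted p, and without the KO-labelled arrays 1, 2 and 4 the adjusted p was 0.0568, 0.0583 and 0.0567. Sec24b differed by -0.49 (interval -1.01 to 0.04) and passed without the KO-labelled array 4 (adjusted p = 0.0495). Sec24d differed by -0.24 (interval -0.69 to 0.21). The cage genes Sec13 and Sec31a differed by 0.05 (interval -0.40 to 0.51) and -0.27 (interval -0.73 to 0.19). The COPII median difference was -0.26, and -0.14 without the KO-labelled array 3.

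Paralogs were also compared within arrays, which removes differences in centring between arrays. Over 10 pairs the gap between paralogs was set between groups with an exact two-sided permutation test, whose smallest p is 0.0286. Sec24a minus Sec24c was 0.17 ± 0.23 (SD, n = 4) on the KO-labelled arrays and -1.38 ± 0.11 (SD, n = 3) on the control arrays, a shift of 1.55. Sec11c minus Sec11a shifted by 1.44, Sec24a minus Sec24b by 1.17, Sec24a minus Sec24d by 0.92 and Sar1a minus Sar1b by 0.71. In each of these 5 pairs the groups did not overlap and the exact permutation p was the smallest possible, 0.0286, but the Benjamini-Hochberg adjusted p over the 10 pairs was 0.0571. Of these 5 pairs 3 share Sec24a and are not independent. The pairs were tested after the single-gene values were seen. For Sec24a minus Sec24c the outcome was fixed by those values. All KO-labelled arrays lay above the controls for Sec24a and below them for Sec24c. Its p restates the single-gene results and adds no support. Sec61a1 minus Sec61a2 shifted by 0.74 (exact permutation p = 0.143), Sec24b minus Sec24c by 0.39 (exact permutation p = 0.0571), Sec24b minus Sec24d by -0.25 (exact permutation p = 0.486) and Sec24c minus Sec24d by -0.63 (exact permutation p = 0.114). For Sec24b minus Sec24c the groups did not overlap either. Sec23a minus Sec23b was -1.19 ± 0.12 (SD, n = 4) on KO-labelled arrays and -1.23 ± 0.42 (SD, n = 3) on control arrays, a shift of 0.04 (exact permutation p = 0.886).

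Promoter windows of 250 bases before to 50 after the start were available for 31 of the 37 genes (RefSeq, GRCm38.p6). Motifs of the unfolded protein response were searched on both strands, because ATF6 and XBP1 act on secretory pathway genes through them. The elements ERSE and ERSE-II were in none of the 31 windows, as in nearly all of the 32851 windows of the table (0.119% and 0.0365% held them). The core TGACGTG of the unfolded protein response element, which overlaps the CRE motif TGACGTCA in TGACGT, was in 4 of the 31, against 2.01% of all windows. The core contains a CpG, and the 31 windows held a median of 15 CpG before the start, against 6 over all windows. These shares are thus not a like comparison, and enrichment was not tested. All 4 belong to coat genes, and none of these passed the test as deposited. Stretches of 29 bases around each match are shown because the 4 genes share this element. Their differences were negative, which was common among coat genes: only 5 of the 16 had a positive difference. Capitals mark TGACGTG or its reverse complement.
Copb1: ccgcccccttcCACGTCAgccaaggactt
Copb2: cccggaagttcCACGTCAgtgggttggcc
Sec23a: ctcctccccttTGACGTGgcagaggcggc
Sec24d: gcccgggcgccTGACGTGgcactagcaac
They lie at chr7:114254690-114254718 (minus strand), chr9:98563714-98563742 (plus), chr12:59011994-59012022 (minus) and chr3:123267459-123267487 (plus). The first base of the match is at -27 for Copb1, -6 for Copb2, -26 for Sec24d and 6 for Sec23a, counted in bases from the start. A match describes letters in a window and does not show a bound site.

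Genes that work with these complexes were taken from lists written by role, 122 names of which 113 were measured. Of these 28 (24.8%) were higher and 9 (7.96%) lower, beside 17.4% and 7.36% of all genes, and their median log2 difference was 0.12, below the 0.17 of all genes. Of 14 translocon partners 6 were higher and 0 lower. Nomo1, a part of a translocon for membrane proteins, rose by 1.19 (SE 0.20, limma adjusted p = 6.93e-04). The co-chaperone gene Dnajc3 rose by 0.96 (SE 0.19) and Tram1, which lies beside the channel, by 0.83 (SE 0.17). Of 4 measured SRP partners 2 were higher and 0 lower. Naca, a subunit of the nascent chain complex that competes with SRP, measured 8.50 ± 0.26 on KO-labelled arrays and 6.87 ± 0.15 on control arrays and rose by 1.63 (SE 0.20), and its partner Btf3 by 0.84 (SE 0.21), a call lost when arrays were centred (adjusted p = 0.0575) or control array 1 was left out (adjusted p = 0.0559). Srpr, the alpha subunit of the SRP receptor, differed by -0.51 (SE 0.19, limma adjusted p = 0.0677), opposite in sign to Srprb, and missed the threshold as deposited. It passed towards lower signal after centring (-0.74, adjusted p = 0.0184), after the repeated quantile normalization (-0.84, adjusted p = 9.80e-04), without genes of low mean (adjusted p = 0.0491), with array weights (adjusted p = 0.0341), with a block for Xist (adjusted p = 0.0388) and when KO-labelled array 4 was left out (adjusted p = 0.0386).

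Of 15 measured genes of the GET and EMC routes, which insert membrane proteins, 5 were higher and 1 lower. Emc4, Emc2 and Emc7, subunits of the EMC insertase, rose by 1.35 (SE 0.19), 1.44 (SE 0.27) and 0.97 (SE 0.20). The call of Emc7 was lost with the mean of its probe sets (adjusted p = 0.529). Of 12 genes of oligosaccharyltransferase, which adds N-glycans to entering chains, 1 was higher and 2 lower. Dad1, one of its subunits, measured 7.80 ± 0.41 on KO-labelled arrays and 9.44 ± 0.20 on control arrays, and fell by 1.64 on the log2 scale (SE 0.23, limma adjusted p = 2.03e-04). Magt1 rose by 1.01 (SE 0.19). Ddost fell by 0.70 (SE 0.22), a call lost without control array 1 (adjusted p = 0.129), control array 2 (adjusted p = 0.129) or the KO-labelled array 2 (adjusted p = 0.053) or 3 (adjusted p = 0.0639).

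Among 16 COPI partners 2 were higher and 2 lower, and among 28 COPII partners 4 were higher and 2 lower. The KDEL receptors, which return ER residents, split: Kdelr3 rose by 1.10 (SE 0.21) and Kdelr2 fell by 0.90 (SE 0.22), a call lost without control array 1 (adjusted p = 0.0633). Arfgap3, which acts on the COPI GTPase ARF1, fell by 0.68 (SE 0.22). That call was lost without control arrays 1 to 3 (adjusted p = 0.0897, adjusted p = 0.137 and adjusted p = 0.0667) and without the KO-labelled array 2 (adjusted p = 0.0932) or 3 (adjusted p = 0.0734). Bet1, a SNARE of ER-to-Golgi vesicles, measured 5.13 ± 0.083 on KO-labelled arrays and 2.68 ± 0.45 on control arrays and rose by 2.45 (SE 0.23, limma adjusted p = 9.37e-06). The SNARE gene Ykt6 rose by 0.90 (SE 0.20). Creb3l2, a transcription factor that activates Sec23a in cartilage, fell by 1.15 (SE 0.23, limma adjusted p = 0.00273).

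Cargo receptors and p24 proteins select what enters the vesicles. Of 24 measured genes 8 were higher and 2 lower. Tmed6, a p24 family gene, measured 8.91 ± 0.14 on the KO-labelled arrays and 6.53 ± 0.39 on the control arrays and rose by 2.39 (SE 0.21, limma adjusted p = 5.54e-06). Tmed2, a p24 protein of COPI and COPII vesicles, measured 7.74 ± 0.12 on KO-labelled arrays and 6.03 ± 0.082 on control arrays and rose by 1.72 (SE 0.18). Mcfd2, which works with the lectin LMAN1 in the export of some glycoproteins, measured 6.08 ± 0.10 on KO-labelled arrays and 4.88 ± 0.12 on control arrays and rose (limma adjusted p = 4.90e-04).

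**Figure D4:**
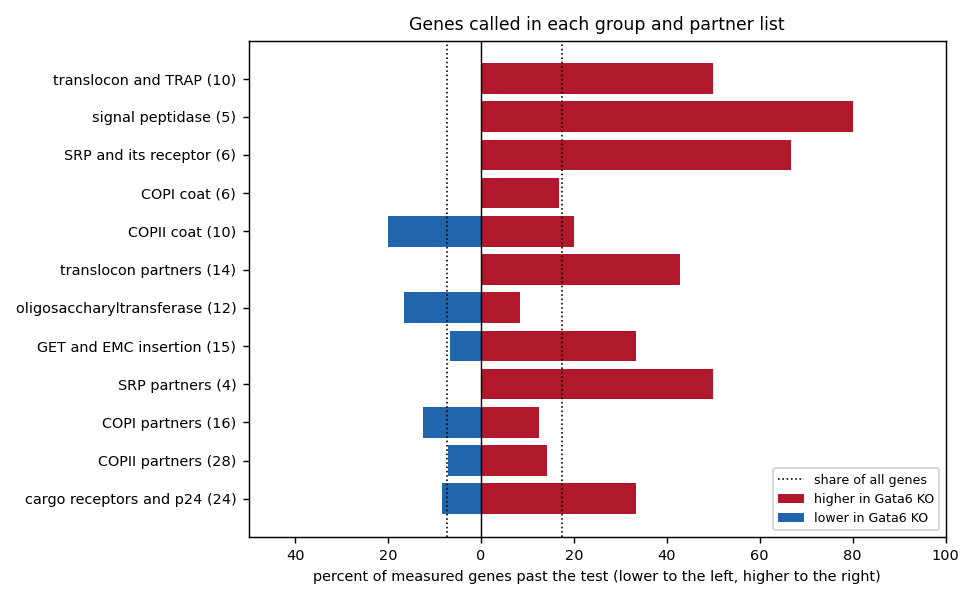
Percent of the measured genes of each role and partner list (number in brackets) that passed the test, higher in the KO-labelled arrays to the right and lower to the left. Dotted lines mark the shares of all genes, 17.4% and 7.36%. The bars of signal peptidase and of SRP and its receptor reach furthest to the right.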

How the data were processed

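The deposited log2 values are the authors' RMA signals per probe set: the submitters' processing notes list RMA and Transcriptome Analysis Console, with no version. The genome build was not stated in the sources used here. Low log2 signals lie near background, where differences are compressed, and the highest can be saturated. The number of arrays limits the precision.

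Of 41345 probe sets, 23521 had a single symbol in the platform annotation, 1814 several and 16010 were unnamed here. Per gene the probe set with the highest mean over the 7 arrays was used, which gave 22180 genes. A linear model with group as its only term was fitted per gene (limma 3.58.1, R 4.3.3; eBayes, trend on), with Benjamini-Hochberg adjustment over all genes, two-sided, at an adjusted p under 0.05. SEs and 95% intervals are moderated. The script was tested on simulated data.

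The members, the lists, the markers and the tests were chosen with earlier results of these data known. The naming rule covers all members, Gata6, the 3 partner genes with the smallest p per list, the 2 brightest markers per list, Bhlha15 and hormone genes. Named beside that rule were the COPI subunit genes Copz2, Copg2 and Arcn1 and the acinar factors Ptf1a, Rbpjl and Nr5a2. Of the markers only those of the acinar list are named, and the other lists are given by counts. Xist was named after its values were seen. The paralog comparison was added after the values were seen, since no protein sequences were used here. Alternatives covered scaling, a filter on low means, probe set averaging, variance models, array weights, a replicate block and each array left out.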

Additional observations from a re-analysis of the deposited data

Results flagged for a closer look

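The spread among the 4 KO-labelled arrays was checked for each of the 37 genes with Dixon's ratio, the gap of the most extreme array to its nearest neighbour over the whole range (critical value 0.829). By chance about 1 in 20 groups exceeds it, and 3 of 37 did. Sec61g was low on the KO-labelled array 4 (6.96, ratio 0.843), and still above every control array. Sec11a was low on the same array (5.32, ratio 0.851). Copz1 was low on the KO-labelled array 3 (6.33, ratio 0.906), the array on which all COPI genes were lowest within their group. The group of 3 control arrays was not checked in this way.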

How the results depend on the processing

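Over 20 counts and medians and their alternatives, 288 of 340 values stayed within the limits set and 52 moved. None of the medians changed sign, which the counts cannot do. Centring each array gave 1870 higher and 2769 lower genes in all, 8 higher and 5 lower members (3 higher in the translocon and TRAP, 1 higher and 1 lower in SRP, 0 higher and 1 lower in COPI, 1 higher in COPII), a members' median of 0.16 and an SRP median of 0.62. Repeated quantile normalization gave 2440 higher and 2477 lower genes, 10 lower members (1 in SRP, 5 in COPI, 4 in COPII), 0 higher COPI genes and medians of 0.062 (members), 0.75 (SRP) and -0.59 (COPI). The cause was not tested. Left-out arrays gave ranges of 2246 to 3812 higher and 1019 to 1801 lower genes in all, 12 to 16 higher and 0 to 4 lower members, 0 to 1 higher and 0 to 1 lower in COPI, 1 to 2 higher and 0 to 3 lower in COPII, and an SRP median from 0.74 to 0.92. Added after the values were seen, a block for low and high Xist arrays gave 4 lower members, 1 of them in COPI, and leaving out KO-labelled arrays 3 and 4 gave 0 lower members, 0 in COPII, with an SRP median of 0.72. Same-numbered arrays correlated at 0.0976, 0.00432 and 0.115, so the numbers were not taken as pairs. With the replicate block 3975 genes were higher and 1946 lower, with 15 higher and 3 lower members and 0 higher COPI genes, and Sec24b (-0.66, adjusted p = 0.032) and Srpr (adjusted p = 0.0263) passed as lower. No control array carries the number 4, so under this block KO-labelled array 4 adds nothing to the differences. They equal those without that array, as for Sec24b (-0.66 in both), so the 2 settings are not separate support. Signals near the median of all probe sets, as for Sec61b and Sec61a2, limit what can be read from those genes, and with 3 control arrays several calls rest on single arrays.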

Other observations

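Promoter windows of the 31 matched genes were richer in CpG than the table as a whole: the 250 bases before the start held a median of 15 CpG and 58.0% GC, against 6 CpG and 52.4% GC over all 32851 windows. The members called higher (14 windows, median 17.5 CpG) and those not called (15 windows, median 14 CpG) covered similar ranges, 3 to 26 and 3 to 29 CpG. A GATA site, AGATAA on either strand, was in 4 of 31 windows (Sec61a2, Ssr1, Srprb and Sec13), where 11.2% of all windows held it. These are descriptions of letters, given without a test.

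Within the KO-labelled group, array 1 gave the highest value for 24 of the 37 genes, and array 3 the lowest for 16 and array 4 for 14. Array 3, the array of low Xist in this group, was also lowest in the mean of the pan-endocrine markers (3.85, against 4.83, 5.44 and 5.09 on arrays 1, 2 and 4), and array 1 highest in the mean of the lymphoid and plasma-cell markers (3.41, against 2.87, 2.57 and 2.71 on arrays 2 to 4).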
